A study of Homo sapiens with 2 samples.

Results

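SOX2-high NANOG-high cells are human embryonic stem cells that carried the transcripts of 2 pluripotency factors after a differentiation signal and carried few of those of primitive streak or of TFAP2A. They were chosen by measured values. Among cells of at most 7500 detected genes, at most 25% mitochondrial counts and at least 10000 unique molecular identifiers (UMIs, each standing for 1 captured transcript), a cell was taken if it held at least 2 SOX2 and at least 1 NANOG per 10000 UMIs, under 1 for MIXL1, EOMES and TBXT together, and under 0.5 for TFAP2A. In the library labelled WT, 187 of 2173 such filtered cells met the rule (8.61%, 95% interval 7.46 to 9.86). In the library labelled GATA3 KO it was met by 461 of 4038 cells (11.4%, 10.5 to 12.4). Together these are 648 of 6211 cells (10.4%).

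Both libraries were 10x Genomics 3′ single-cell RNA sequencing of the established human embryonic stem cell line H1, kept in mTeSR1 medium with 50 ng/ml of bone morphogenetic protein 4 (BMP4) for 48 h. The WT cells were unmodified H1 cells. The GATA3 KO cells were 1 clone, KO-GATA3-06, made by targeting GATA3, which encodes a transcription factor, in a line that was itself 1 clone of H1 with a doxycycline-inducible Cas9 at the AAVS1 locus. Effects of the genotype, of the clone and of the inserted Cas9 cannot be told apart. The protocol text of the WT library gives 1 h of BMP4, whereas its title and recorded duration give 48 h. There was 1 library of each kind and no culture without BMP4. No test was therefore made, and every interval covers counting error only.

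SOX2, POU5F1 (also called OCT4) and NANOG encode the transcription factors that hold human embryonic stem cells in the pluripotent state, in which a cell can still form every germ layer. NODAL, a growth factor of the TGF-beta family, sustains NANOG in these cells, and LEFTY1 and LEFTY2 are its secreted inhibitors and are switched on by the same signal. BMP4 moves the cells out of this state. At the streak, MIXL1, EOMES and TBXT come on, whereas TFAP2A and GATA3 mark amnion-like and trophectoderm-like cells.

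NANOG lies at chr12:7787794-7799146 on the forward strand and SOX2 at chr3:181711925-181714436 on the forward strand, both in GRCh38. The NANOG promoter holds the letters bound by SOX2 together with POU5F1, and the stretch is shown because it joins the factors that define these cells. It is read from the RefSeq promoter table (GRCh38.p14) and lies at chr12:7789274-7789303 on the forward strand. Its capitals mark the SOX letters CATTGT, any 1 base and the octamer letters ATGCAAA, read here on the other strand. They run from 120 to 107 bases before the RefSeq start. That start lies inside the NANOG span given above, which is taken from GENCODE and begins further upstream.
NANOG: cagctactTTTGCATTACAATGgccttggt
On either strand, that motif occurred in 3 of 27305 RefSeq promoters of the same length (0.011%). The match describes the sequence alone, since binding was not measured.

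The members were sequenced as deeply as their neighbours. They held a median of 47155 UMIs and 6551 genes in the WT library and 45320 UMIs and 6413 genes in the GATA3 KO library, and 8207386 and 19944958 UMIs in all. Median mitochondrial shares were 11.8% and 11.2%, with 1 and 25 members under 1%. The deposited libraries held 3802 and 6221 cells and shared 8 barcodes, of which 1 WT member and 2 GATA3 KO members carried one. GATA3 itself did not check the labels. Its transcript stood at 3.78 counts per 1000000 UMIs (CPM) in WT members and 1.86 CPM in GATA3 KO members, both far below the 70.1 and 53 CPM of the TFAP2A cells, and UMIs counted from the 3′ end of a transcript check no edit that lies elsewhere in the gene. After each cell had been thinned to 10000 UMIs, 2.1% of WT and 2.2% of GATA3 KO members held a GATA3 UMI (12.3% and 6.51% unthinned), against 1.6% and 0.9% of NANOG-low SOX2-high cells and 35.1% and 33.1% of TFAP2A cells.

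The share of members hides larger and opposite differences in the parts of the rule. SOX2-high cells made up 33.2% of WT cells and 76.8% of GATA3 KO cells, a difference of 43.6 points (41.2 to 46). NANOG-high cells made up 30.1% and 18.1%, a difference of -12 points (-14.3 to -9.76). Members themselves differed by 2.81 points (1.22 to 4.35), by 1.38 points (-0.01 to 2.74) when cells over 7500 genes were kept, and by 11.5 points when the rule was read in cells thinned to 10000 UMIs, where 1 NANOG UMI is enough. Of the SOX2-high cells that had neither streak genes nor TFAP2A at the thresholds, 187 of 672 WT cells (27.8%) and 461 of 2886 GATA3 KO cells (16%) were NANOG-high. So a GATA3 KO library with more SOX2-high cells held a smaller share of NANOG-high cells among them.

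NANOG-high cells also kept different company. In the WT library 32.7% of NANOG-high cells were SOX2-high, and in the GATA3 KO library 71.4%. Streak genes reached the threshold in 42.3% of NANOG-high cells labelled WT and in 9.17% of those labelled GATA3 KO. Among cells that were both SOX2-high and NANOG-high, the streak threshold removed 25 of 214 WT cells (11.7%) and 19 of 522 GATA3 KO cells (3.64%). TFAP2A then removed 2 and 42 cells, or 0.935% and 8.05%.

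**Figure D1:**
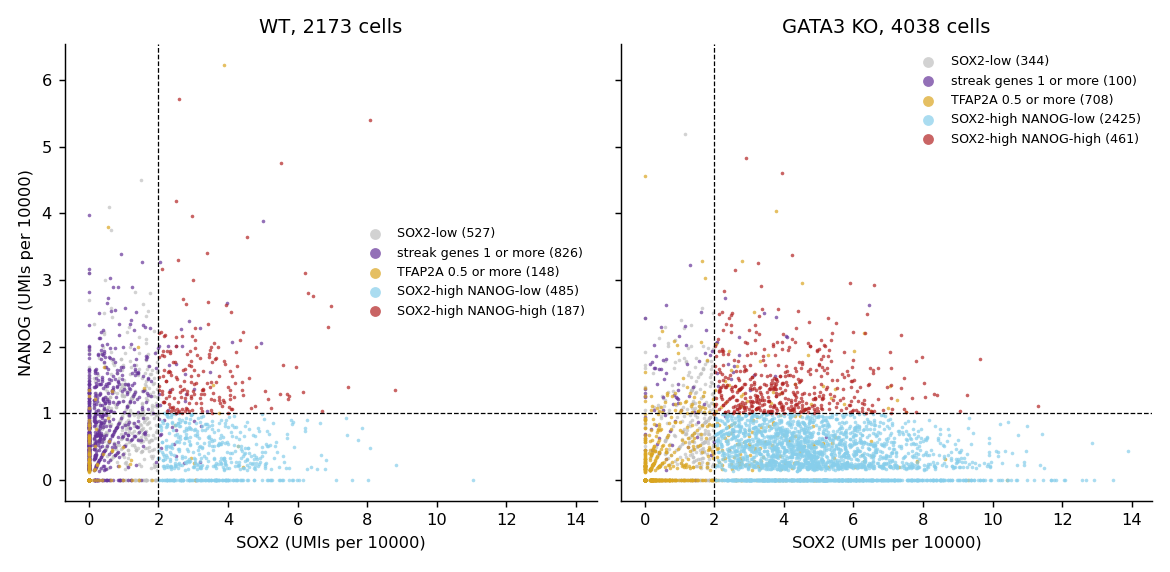
SOX2 against NANOG in each filtered cell of the 2 libraries, both in UMIs per 10000, with dashed lines at the thresholds and colours for the 5 classes of cells (number of cells in brackets). The 187 WT and 461 GATA3 KO members lie above and to the right of both lines without a gap to their neighbours, and most SOX2-high cells of the GATA3 KO library lie below the NANOG line.

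The thresholds cut a continuous range. Among members SOX2 ran from 2.01 to 8.81 per 10000 (median 3.04) in the WT library and from 2.0 to 11.3 (median 3.88) in the GATA3 KO library. NANOG ran from 1.00 to 5.71 (median 1.45) and from 1.00 to 4.83 (median 1.35). Just inside the NANOG threshold, at most 0.25 per 10000 above it, lay 55 WT and 191 GATA3 KO cells, with POU5F1 at 983 and 1574 CPM and THY1 at 100.4 and 302 CPM. Just outside it, at most 0.25 below, lay 85 and 310 cells with POU5F1 at 958 and 1537 CPM and THY1 at 83.1 and 280 CPM. LNCPRESS1 was lower inside than outside, at 32.8 against 38.2 CPM and at 58.0 against 63.1 CPM. NODAL stood at 50.9 inside and 56.8 CPM outside in the WT library, and at 18.6 and 10.6 CPM in the GATA3 KO library. A member was taken on a median of 6 NANOG UMIs in each library, and on as few as 2.

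Because the rule picks cells whose NANOG count happened to be high, the rule was also read on UMIs drawn at random from each cell with a chance of 50% and levels were taken from the remaining UMIs. Read this way, the rule took 172 WT and 527 GATA3 KO members, with 442 and 2226 SOX2-high cells below the NANOG threshold. The cells compared were therefore not all the same as before. NANOG stood at 114 CPM (103 to 125) in WT members and 52.9 CPM in SOX2-high cells below the NANOG threshold, in place of 156 and 38.8 CPM. In the GATA3 KO library the held-out values were 89.1 CPM (83.7 to 94.8) and 45.9 CPM, in place of 143 and 37.4 CPM. A difference in NANOG was thus still present in UMIs that the rule had not used. SOX2 in the held-out UMIs was 305 CPM in WT members and 419 CPM in GATA3 KO members.

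The label of pluripotent cells was set beside the 3 markers that the rule did not use. Like the members, these markers were chosen with earlier results of these data known. Their levels therefore describe the members and do not test the label. POU5F1 was detected in every member. It stood at 1041 CPM in WT members and 904 CPM in all other WT cells, a log2 ratio of 0.20 (0.17 to 0.24), and at 1584 and 1463 CPM in the GATA3 KO library, a ratio of 0.11 (0.10 to 0.13). POU5F1 was high in all 5 classes of cells, with 839 to 1041 CPM in the WT library and 1371 to 1685 CPM in the GATA3 KO library, so it does not separate members from the rest. LNCPRESS1, a long noncoding RNA of pluripotent cells, stood at 33.1 CPM against 15.6 CPM in the WT library (ratio 1.04) and at 65.4 against 43.4 CPM in the GATA3 KO library (0.58). THY1, which encodes the surface protein CD90, stood at 101 against 71.4 CPM (0.49) and at 319 against 201 CPM (0.66). Ratios throughout are log2 of CPM plus 1, which understates the change of low genes. Members had the highest level of the 5 classes for LNCPRESS1 and THY1 in both libraries, followed for THY1 by SOX2-low cells at 86.6 and 260 CPM.

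**Figure D2:**
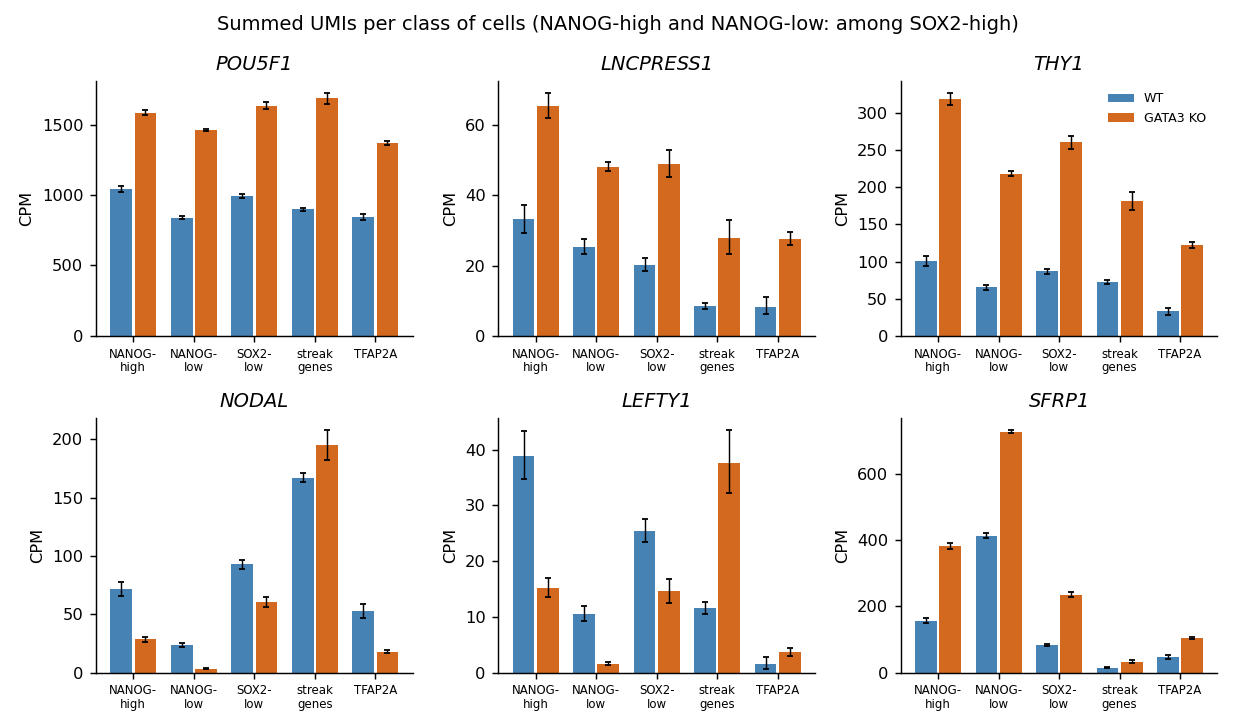
Levels of 6 genes in CPM over the 5 classes of cells, in WT (blue) and GATA3 KO (orange), with bars for summed UMIs and whiskers for exact Poisson 95% intervals. LNCPRESS1 and THY1 were highest in the NANOG-high class of each library, NODAL was highest in cells with streak genes, and SFRP1 in the NANOG-low class.

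In a list of pluripotency-associated genes that includes LNCPRESS1 and THY1, 29 genes were measured, 24 of them at 20 CPM or more in members or other cells of a library. Both of these markers are among the genes counted as higher below. In WT cells 21 of the 24 were higher in members, with a median log2 ratio of 0.46, beside a median of 0.05 over all 5311 genes of that level and 63.0% of them above 0. In GATA3 KO cells 17 of 24 were higher, with a median of 0.13, beside 0.02 and 57.7% over 5297 genes. The step between members and other cells was therefore smaller in the GATA3 KO library. There, 60.1% of all filtered cells were NANOG-low SOX2-high cells, against 22.3% in the WT library, so the cells set against the members differed between the libraries.

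Within this list the highest ratios of WT members over all other WT cells were those of UTF1 and LNCPRESS1. UTF1, a chromatin-bound factor of embryonic stem cells, stood at 20.8 against 8.47 CPM (1.20). USP44, a deubiquitinase, stood at 175 against 98.0 CPM (0.83). DNMT3B, a DNA methyltransferase that sets new methylation, stood at 334 against 204 CPM (0.71). In the GATA3 KO library the same genes gave ratios of 0.34 for UTF1, 0.41 for USP44 and 0.11 for DNMT3B. LIN28A, an RNA-binding protein that blocks let-7 maturation, was 0.39 higher in WT members and 0.06 lower in GATA3 KO members. EPCAM, an epithelial adhesion protein, was 0.25 and 0.26 lower in members of the 2 libraries.

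Against NANOG-low SOX2-high cells alone, the pluripotency-associated genes no longer stood out. Their median log2 ratio was -0.01 in the WT library, with 13 of 26 genes higher (58.2% of all genes were), and -0.05 in the GATA3 KO library, with 12 of 24 higher (54.7% of all genes). TERF1, a telomere protein, was 0.31 and 0.21 lower in members. CD24, a surface glycoprotein, was 0.36 and 0.12 lower, and the transcription factor OTX2 was 0.84 lower in both. THY1 was 0.62 and 0.54 higher. L1TD1, an RNA-binding protein of stem cells, was 0.38 and 0.28 higher. UTF1 was detected less often in members than in NANOG-low SOX2-high cells. Before thinning, a UTF1 UMI was found in 46.5% against 59.0% of cells in the WT library. In the GATA3 KO library it was found in 59.9% against 64.7%.

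**Figure D3:**
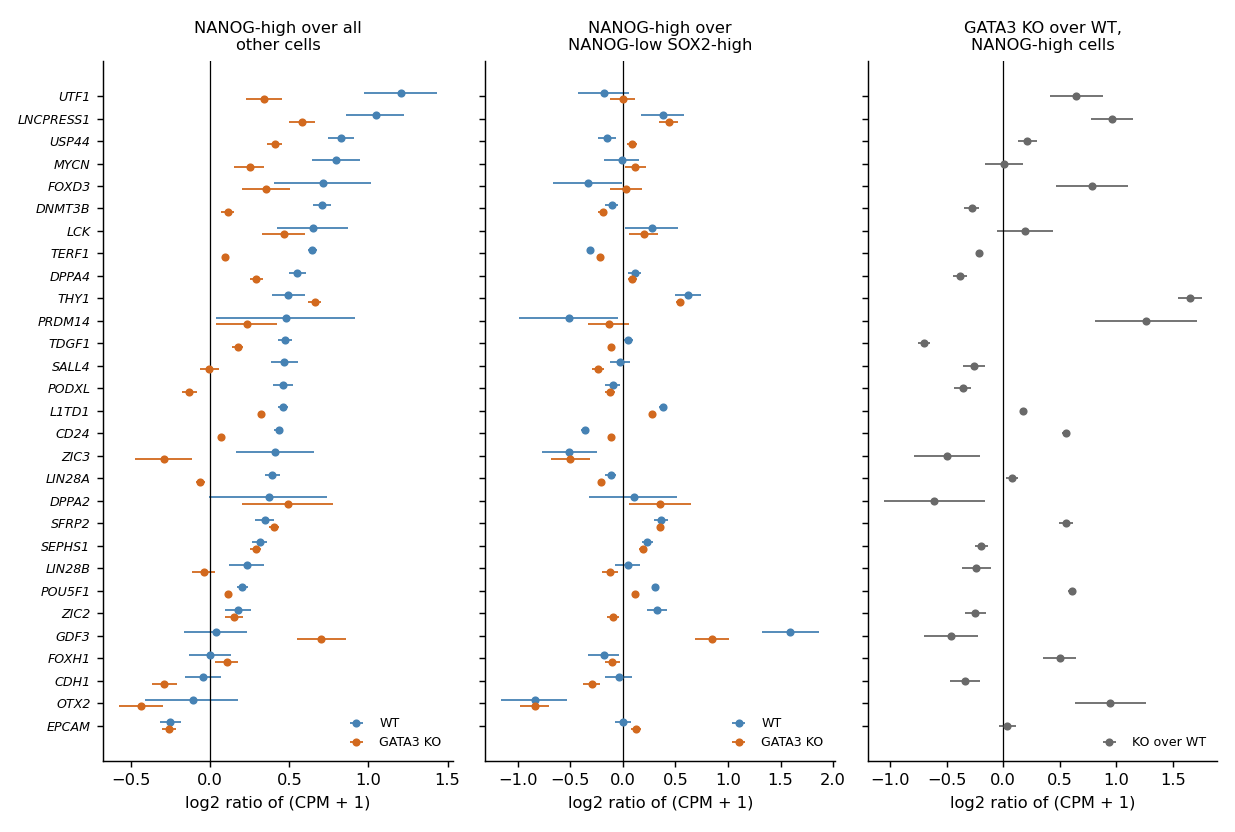
Log2 ratios of CPM plus 1 for 29 pluripotency-associated genes, with exact binomial 95% intervals as lines, in 3 comparisons. Points lie mostly right of 0 for WT members against all other WT cells, closer to 0 in the GATA3 KO library, and on both sides of 0 against NANOG-low SOX2-high cells and between the libraries.

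Naive pluripotency genes mark an earlier state of the embryo. Of 12 measured, 6 were under 1 CPM in WT members and 7 in GATA3 KO members, with 4 and 3 of them at 0 and a summed level of 85.9 and 98.5 CPM, within the 70.4 to 117 CPM and 88.9 to 148 CPM of the other classes. Almost all of it was ZFP42 (REX1), at 73.6 and 90.6 CPM. KLF17 and DNMT3L were at 0 in members of both libraries.

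Over all genes, few differed 2-fold between members and the rest of their library. In the WT library 10 of 5311 genes (0.188%) were at least 2-fold higher and 56 (1.05%) at least 2-fold lower in members. The 10 became 5 when library totals were scaled by edgeR TMM or DESeq2, 2 when the rule was read after thinning and 33 at stricter thresholds. In the GATA3 KO library 3 of 5297 genes (0.0566%) were higher and 22 (0.415%) lower. The rule fixed the direction of some of them, namely SOX2 and NANOG among the higher and MIXL1, EOMES and TBXT among the lower in the WT library, and NANOG and TFAP2A in the GATA3 KO library. The other 8 that were higher in WT members were LEFTY1 (1.39), UTF1 (1.20), the metallothioneins MT1H (1.18) and MT1G (1.10), the noncoding AC007218.1 (1.07), ZNF398 (1.05), LNCPRESS1 (1.04) and PIM2 (1.01), a kinase. The other 2 in GATA3 KO members were LINC00458 (1.18) and AK4 (1.08). These last lists were named after their values were seen. In WT members 73.6% of the MT1G UMIs and 83.6% of the MT1H UMIs lay in 5 cells, so these 2 ratios rest largely on few cells. Metallothioneins summed to 279 CPM in WT members and to more, 366 CPM, in NANOG-low SOX2-high WT cells.

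The genes that were lowest in both libraries were HAPLN1, which encodes a link protein of the extracellular matrix, HPGD, which breaks down prostaglandins, WLS, which carries WNT proteins to the cell surface, and CLDN10, a tight junction protein. HAPLN1 stood at 1.58 CPM in WT members and 23.3 CPM in other WT cells, and at 0.80 and 24.8 CPM in the GATA3 KO library (log2 ratios -3.23 and -3.84). HPGD stood at 29.1 and 240 CPM, and at 15.3 and 129 CPM (-3.0 in both). ACTC1, cardiac alpha-actin, was at 32.9 and 129 CPM, and at 134 and 465 CPM (-1.94 and -1.79). RHOBTB3, MSX2, TMEM54, SPP1 and FN1 followed, with ratios from -1.18 to -2.18.

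The genes that were highest in both libraries changed less. AK4, a mitochondrial adenylate kinase, stood at 96.1 against 49.3 CPM in the WT library and at 84.7 against 39.7 CPM in the GATA3 KO library (0.95 and 1.08). MYC, a growth-promoting transcription factor, stood at 50.3 against 27.3 CPM and at 20.2 against 13.4 CPM (0.86 and 0.56). RND3 gave 0.72 and 0.75. NFE2L3 (0.57 and 0.68), ITPR2 (0.71 and 0.62), PDZD4 (0.63 and 0.53), ETV1 (0.64 and 0.47) and the noncoding AP000459.2 (0.75 and 0.99) completed the set with LNCPRESS1 and THY1.

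BMP response genes were lower in members. Of 17 measured genes 8 were at 20 CPM or more, and 7 of the 8 were below 0 in each library. Over all genes 63.0% and 57.7% were above 0. Medians were -0.92 in the WT library and -0.51 in the GATA3 KO library, beside 0.05 and 0.02 over all genes. In the WT library 4 of the 8 were at least 2-fold lower, and in the GATA3 KO library 2, where 1.05% and 0.415% of all genes were. ID4 and BAMBI, a decoy receptor, were both 1.15 lower in WT members, and 0.95 and 0.79 lower in GATA3 KO members. BMP4 itself stood at 12.4 against 28.7 CPM in the WT library and at 14.8 against 71.0 CPM in the GATA3 KO library. TFAP2A cells, which the rule keeps out, had a summed BMP response of 4099 and 5413 CPM, against 1344 and 1988 CPM in members. Against NANOG-low SOX2-high cells members were higher, with medians of 0.33 and 0.41 over 6 genes in each library, and ID1 gave 0.32 and 0.48.

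Markers of other cell types were present at different levels in members. Endoderm genes summed to 5.85 CPM in WT and 5.47 CPM in GATA3 KO members, where 2 and 4 of 10 genes were at 0, and SOX17 stood at 0.12 and 0 CPM. Streak genes outside the rule summed to 45.7 and 20.9 CPM, with 12 of 16 genes under 1 CPM in each library. NANOG-low SOX2-high cells held less, at 17.8 and 9.58 CPM of streak genes and 5.21 and 3.16 CPM of endoderm genes. In the GATA3 KO library all other cells together also held less than members, at 18.4 CPM of streak and 4.81 CPM of endoderm genes. In the WT library they held more, at 159 and 99.4 CPM. WNT3 and FGF8, at 11.2 and 11.3 CPM in WT members, and SP5, at 15.5 CPM, made up most of that sum. Amnion and trophectoderm genes outside the rule summed to 763 and 1230 CPM, nearly all of it the keratins KRT18, KRT8 and KRT19, while HAND1 stood at 0.37 and 0.15 CPM and ISL1 at 0.24 and 0.25 CPM. Early neural ectoderm genes summed to 73.0 and 84.4 CPM, of which IRX2 gave 50.7 and 60.5 CPM. SOX1 was at 0 and 0.05 CPM and PAX6 at 0.24 and 0 CPM. Primordial germ cell genes summed to 108 and 123 CPM, of which PDPN gave 81.3 and 103 CPM, and DDX4 stood at 0.12 and 0 CPM.

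Within SOX2-high cells, members held more of the NODAL ligand and its inhibitors. NODAL stood at 71.4 CPM in WT members and 23.6 CPM in NANOG-low SOX2-high WT cells, and at 28.4 and 3.38 CPM in the GATA3 KO library. The log2 ratios were 1.56 (1.39 to 1.72) and 2.75 (2.58 to 2.91). LEFTY1 stood at 38.9 and 10.6 CPM, and at 15.2 and 1.56 CPM (1.79 and 2.66). LEFTY2 gave 1.31 and 1.65, and GDF3, a related ligand, 1.60 and 0.85. LEFTY2 stood at 19.98 CPM in WT members and 4.41 CPM in GATA3 KO members. SOX2-low cells held more NODAL than members, at 92.8 CPM in the WT library and 60.7 CPM in the GATA3 KO library. LEFTY1 stood at 25.4 and 14.6 CPM in SOX2-low cells and at 11.6 and 37.6 CPM in streak cells. Receptors and SMAD proteins of the pathway moved little, with ACVR2B at 0.13 and -0.07, SMAD2 at -0.02 and -0.08 and the co-factor FOXH1 at -0.18 and -0.10. SKIL, a feedback inhibitor, gave 0.77 and 0.50. Over the whole pathway, 3 of 8 genes in the WT library and 1 of 6 in the GATA3 KO library were at least 2-fold higher and none was 2-fold lower, where 0.302% and 0.151% of all genes were higher and 0.0755% and 0.0% lower. The 4 genes at least 2-fold lower in WT members, named here because they are so few, were SFRP1 (-1.39), APELA (-1.19), a peptide hormone of embryonic stem cells, IDO1 (-1.09), which breaks down tryptophan, and DDIT4 (-1.05), a stress-induced inhibitor of mTOR.

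These transcripts were not spread evenly over the members. A NODAL UMI was found in 128 of 187 WT members and 129 of 461 GATA3 KO members, and a LEFTY1 UMI in 85 and 83. In cells thinned to 10000 UMIs, 43.3% of WT members held NODAL against 15.9% of NANOG-low SOX2-high cells, and 16.1% against 2.3% in the GATA3 KO library. Cells with streak genes, in which NODAL was most abundant, were at 76.5% and 77.0%, and SOX2-low cells at 49.7% and 27.6%. Counting intervals of members and NANOG-low SOX2-high cells did not overlap, at 36.1% to 50.7% against 12.7% to 19.4% in the WT library. In the GATA3 KO library they were 12.8% to 19.7% against 1.75% to 2.99%. The interval of SOX2-low WT cells, 45.4% to 54.1%, overlapped that of WT members. These intervals cover counting error only, and cells of the same library are not replicates. The 5 members with most LEFTY1 held 28.8% of its UMIs in the WT library and 31.4% in the GATA3 KO library.

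Divided by NANOG into 7 steps, SOX2-high cells without streak genes or TFAP2A showed how gradual this was. In WT cells NODAL went from 4.64 CPM in 122 cells with no NANOG UMI to 44.2 CPM at 0.5 to 1 per 10000, 53.4 CPM at 1 to 1.5, 104 CPM at 1.5 to 2 and 85.8 CPM in 34 cells at 2 or more. In GATA3 KO cells it went from 0.846 CPM in 638 cells with no NANOG UMI to 6.94, 22.5, 35.9 and 51.2 CPM at the same steps. POU5F1 went from 753 to 1099 CPM in WT cells and from 1425 to 1662 CPM in GATA3 KO cells. THY1 went from 52.2 to 109 CPM and from 157 to 360 CPM. EOMES also went up, from 0.967 to 17.0 CPM and from 0.466 to 12.8 CPM, within the limit that the rule sets on it. Median depth moved too, from 43398.5 UMIs at no NANOG to 32551 at 2 or more in WT cells and from 39198.5 to 38797.5 in GATA3 KO cells, and its part in the steps was not tested.

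**Figure D4:**
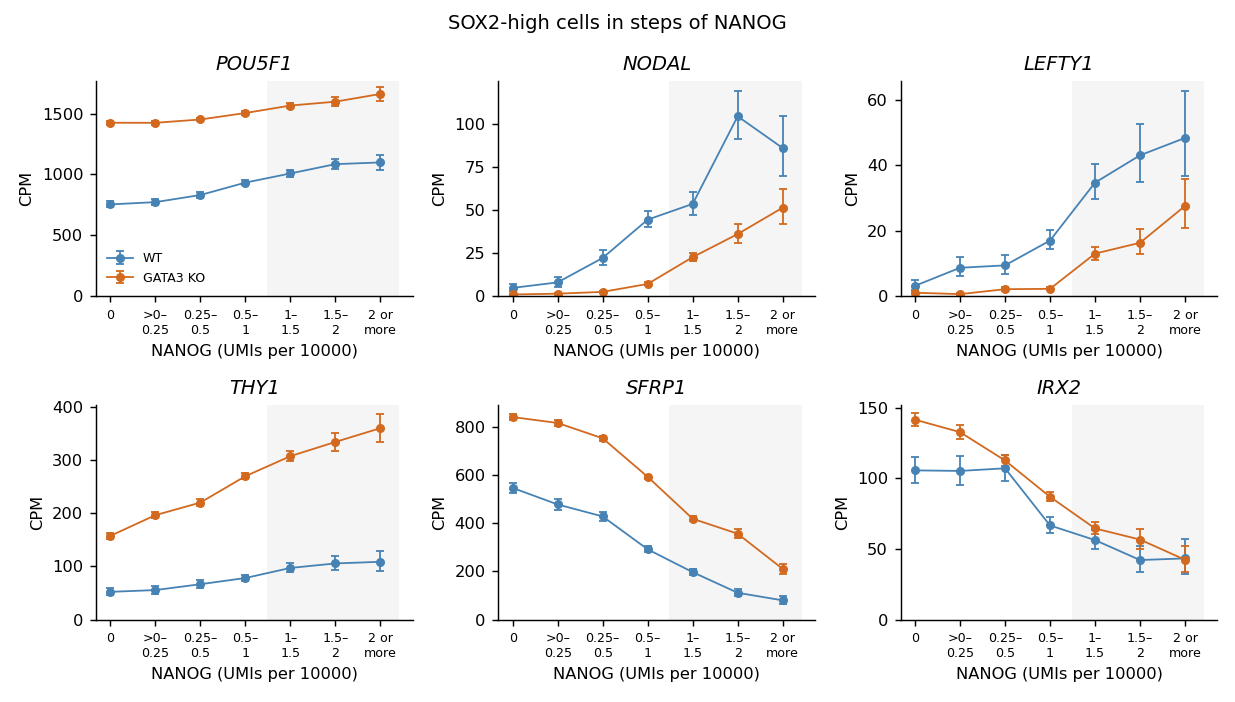
Levels of 6 genes in CPM over 7 steps of NANOG (UMIs per 10000) among SOX2-high cells without streak genes or TFAP2A, in WT (blue) and GATA3 KO (orange), with exact Poisson 95% intervals. NODAL, LEFTY1, POU5F1 and THY1 were higher and SFRP1 and IRX2 lower at high NANOG, and the grey area holds the NANOG-high cells.

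Other genes were lower where NANOG was high. SFRP1, a secreted WNT inhibitor, stood at 157 CPM in WT members and 414 CPM in NANOG-low SOX2-high cells, and at 383 and 729 CPM in the GATA3 KO library (-1.39 and -0.93). IRX2, a homeobox gene of early ectoderm, stood at 50.7 and 91.5 CPM, and at 60.5 and 114 CPM (-0.84 and -0.91). OTX2, PCDH18, a protocadherin, and COL1A1, a collagen chain, gave -0.84, -0.97 and -0.80 in the WT library and -0.84, -0.89 and -0.78 in the GATA3 KO library. SOX21 (-1.0 and -1.07) and FEZF1 (-0.70 and -1.09), transcription factors of early neural ectoderm, pointed the same way but stood under 5 CPM. The highest ratios in both libraries, besides NODAL, were those of IER3 (1.05 and 1.39), an early response gene, the noncoding LINC00458 (0.97 and 1.18), AK4 (1.02 and 0.92) and NTS (0.87 and 1.31), a secreted neuropeptide.

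FGF pathway genes moved both ways. Of those at 20 CPM or more, 4 of 7 in the WT library and 3 of 6 in the GATA3 KO library were above 0, where 58.2% and 54.7% of all genes were. DUSP6, a phosphatase that damps ERK signalling, was 1.41 and 1.22 higher in members than in NANOG-low SOX2-high cells. FGF8 was 1.32 and 1.67 higher, SPRY4 0.78 and 0.92 higher and ETV4 0.60 and 0.59 higher. DUSP6 in the WT library and FGF8 in both stood under 20 CPM and were not among the genes counted above. The receptors FGFR1 (-0.44 and -0.30) and FGFR2 (-0.30 and -0.32) and the ligand FGF2 (-0.28 and -0.30) were lower. WNT3 (1.70 and 1.41) and SP5 (1.52 and 1.21), a WNT target, were also higher, at 11.2 and 15.5 CPM in WT members and 7.32 and 4.16 CPM in GATA3 KO members.

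Cell cycle genes moved by small amounts. G2/M genes were higher in members than in all other cells, with 18 of 19 above 0 in the WT library (median 0.24) and 19 of 20 in the GATA3 KO library (0.14). S-phase genes were lower, with 3 of 19 and 1 of 19 above 0 and medians of -0.18 and -0.14. Over all genes 63.0% and 57.7% were above 0, with medians of 0.05 and 0.02. No gene of these lists was 2-fold different. Glycolysis genes had medians of 0.00 and 0.02, and p53 targets of -0.09 and -0.00.

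Members varied among themselves most in a few abundant genes. In cells thinned to 10000 UMIs the variance to mean ratio, which is 1 for counting noise alone, had a median of 1.09 in the WT library and 1.08 in the GATA3 KO library over 2338 genes. NTS reached 17.0 and 7.50, the nuclear RNA MALAT1 9.34 and 6.71, the histone gene HIST1H4C 4.69 and 6.73, and the BMP target ID3 5.17 and 4.65. SFRP1 (3.52 and 3.82), the neuropeptide GAL (3.39 and 3.64) and L1TD1 (4.65 and 3.34) also stood out, with NCL, EEF1A1 and HSP90AB1. Among WT members, the 5 cells with most NTS held 1405 of its 6014 UMIs (23.4%), 675 of them in 1 cell. HIST1H4C is a histone gene expressed as DNA is copied, and cells were not separated by cell cycle phase here.

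The last comparison set GATA3 KO members against WT members, to ask how cells that met the same rule differed between the libraries. Of 5608 genes at 20 CPM or more, 93 (1.66%) were at least 2-fold higher and 57 (1.02%) at least 2-fold lower in GATA3 KO members, and with the library totals scaled by DESeq2 the counts were 117 and 45. Between all other cells of the libraries, which differed in makeup, the shares were 2.49% and 2.19% of 5532 genes. The median ratio over all genes was 0.00 in members and 0.07 in other cells. Each difference below is between 1 clone and 1 culture of unmodified H1 cells, which is not the Cas9 line the clone came from, in 1 library each.

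Pluripotency genes that the rule did not use did not move one way. POU5F1 stood at 1041 CPM in WT members and 1584 CPM in GATA3 KO members. SOX2 stood at 326 and 410 CPM and NANOG at 156 and 143 CPM. Members of both libraries were chosen on SOX2 and NANOG, so the levels of these genes depend in part on the thresholds. The POU5F1 ratio of 0.60 (0.57 to 0.64) was also found between all other cells, at 0.69. Of 25 pluripotency-associated genes, 14 were higher and 11 lower, with a median of 0.03, where 50.1% of all genes were higher. THY1 was highest, at 1.65 (1.54 to 1.75), and LNCPRESS1 gave 0.96. TDGF1, the NODAL co-receptor, was lowest of those above 20 CPM, at 593 CPM in WT and 364 CPM in GATA3 KO members (-0.70). PRDM14 gave 1.26, at 3.90 and 10.7 CPM.

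NODAL pathway genes were lower in GATA3 KO members. NODAL and LEFTY1 both gave -1.30, with intervals of -1.46 to -1.13 and -1.52 to -1.08, and LEFTY2 gave -1.95 (-2.29 to -1.62). SKIL stood at 223 and 123 CPM (-0.85). Of the 8 genes at 20 CPM or more, 6 were below 0 and 2 above 0, FOXH1 (0.50) among the latter. Over all genes 50.1% were above 0. The median of the 8 was -0.58, beside 0.00 over all genes. In all other cells NODAL differed more, by -2.56, and LEFTY1 by -1.55, where streak cells, which had most NODAL, were 38% of WT and 2.48% of GATA3 KO cells. SPRY1, a feedback inhibitor of FGF signalling, was lower in GATA3 KO members (-1.56), as were SPRY2 (-1.16) and FGF8 (-1.50), while DUSP6 (1.54) and ETV4 (0.86) were higher.

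Metallothioneins, small proteins that bind zinc and copper, gave the lowest ratios of all. MT1G stood at 56.8 CPM in WT members and 3.46 CPM in GATA3 KO members (-3.70), MT1H at 31.9 and 2.21 CPM (-3.36) and MT1X at 152 and 22.3 CPM (-2.72). All 4 metallothioneins at 20 CPM or more were at least 2-fold lower. A few cells carried much of the first pair. Of 466 MT1G UMIs in WT members 343 (73.6%) lay in 5 cells, and of 262 MT1H UMIs 219 (83.6%) did. MT1X was broader, with a UMI in 153 of 187 WT members and 179 of 461 GATA3 KO members, and 34.1% of its WT UMIs in 5 cells. The summed level of the list in WT cells was 279 CPM in members and 366 CPM in NANOG-low SOX2-high cells, against 61.7 to 109 CPM in the other classes. In the GATA3 KO library it was 37.6 and 57.4 CPM, against 10.5 to 14.5 CPM.

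Among the other lowest genes were the noncoding LINC01356 (-2.20) and LINC00458 (-2.11), PCDH10, a protocadherin (-2.16), TRDN (-1.98), a calcium-store protein of muscle, CDA (-1.72), cytidine deaminase, SNHG25 (-1.72) and TNNI3 (-1.68), cardiac troponin I. PCDH10 stood at 22.3 CPM in WT and 4.21 CPM in GATA3 KO members, LINC00458 at 150 and 34.0 CPM and LINC01356 at 311 and 66.7 CPM. All 3 differed more between the other cells of the libraries, by -4.25, -4.18 and -3.27. SNHG25 differed by the same -1.72 in other cells.

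On the high side stood ACTC1 (1.99), ADM, a vasodilator peptide (1.94), THY1, MYL9, a myosin light chain (1.61), LGALS3BP (1.58), NES, the intermediate filament nestin (1.55), DUSP6 and STMN3, a microtubule regulator (1.52). ADM stood at 24.1 CPM in WT and 95.7 CPM in GATA3 KO members. ACTC1 had 270 UMIs in 126 of 187 WT members and 2669 UMIs in 400 of 461 GATA3 KO members. UQCRHL (1.83) and NME2 (1.81) were also among the 10 highest, but the first has a near-identical copy in UQCRH and the second overlaps a readthrough gene, so their counts are uncertain. Apart from DUSP6, for which other cells gave 0.65, these ratios were similar in all other cells, from 1.41 to 2.21.

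ID1, a direct target of BMP signalling, stood at 402 CPM in WT and 937 CPM in GATA3 KO members (1.22). Some of its neighbours on chromosome 20 were also higher, with HM13 at 41.3 and 114 CPM (1.44), BCL2L1, an inhibitor of cell death, at 15.4 and 36.7 CPM (1.20) and TPX2, a spindle protein, at 105 and 172 CPM (0.71). These lie between chr20:31514428-31577923 (HM13) and chr20:31739271-31801805 (TPX2) in GRCh38. Further along, PDRG1 gave -0.09 (-0.30 to 0.12) and POFUT1 0.01. Of 12 listed genes of this region 8 were at 20 CPM or more. Among these 4 were higher and 4 lower in GATA3 KO members, 2 of them with an interval below 0. Over all genes 50.1% were higher. The median was 0.31 over the 8 and -0.00 over the 12. ID2 and ID3, on other chromosomes, gave 0.44 and 0.21. The same genes gave 1.17, 1.43, 1.60 and 0.86 in all other cells. DNA copy number was not measured.

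Some of these ratios differed in size from those of all other cells. IER3 was 1.26 higher in GATA3 KO members and 0.71 lower in other GATA3 KO cells. IRX2 gave 0.25 in members and 1.37 in other cells, CLDN10 -0.47 and 0.57, SERPINE2, a protease inhibitor, -1.19 and -3.27, and MEIS3, a homeobox gene, -0.23 and -1.72. MT1G, MT1H and MT1X were lower in members by a wider margin than in other cells, where they gave -1.79, -2.10 and -1.76. In WT members 5 cells held 73.6% of the MT1G UMIs, 83.6% of the MT1H UMIs and 34.1% of the MT1X UMIs. Ratios without those cells were not computed, so the wider margin may rest on them. The other cells differed in makeup between the libraries, with streak cells at 38% of WT and 2.48% of GATA3 KO filtered cells. NANOG-low SOX2-high cells were 22.3% and 60.1%. The difference between members and other cells was not tested.

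**Figure D5:**
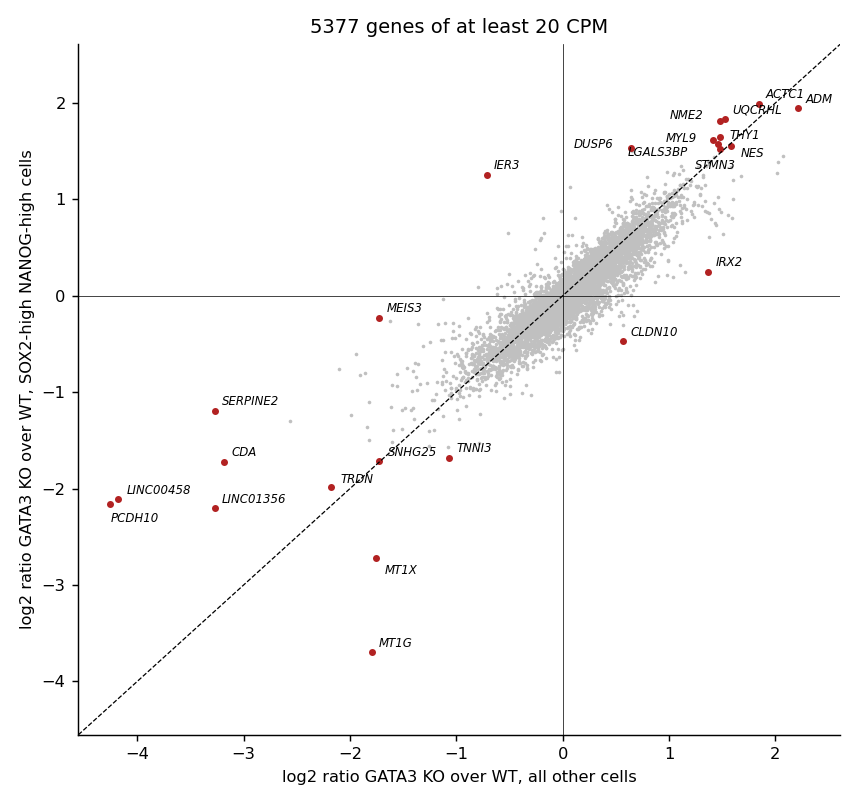
Log2 ratios of GATA3 KO over WT (CPM plus 1) for 5377 genes at 20 CPM or more, in all other cells (horizontal) and in SOX2-high NANOG-high cells (vertical), with the genes named by rank in red and a dashed line where both are equal. ACTC1, ADM and THY1 lie near the line, PCDH10, LINC00458 and SERPINE2 above it, and MT1G and IRX2 below it. The other cells of the libraries differed in makeup.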

How the data were processed

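The authors deposited raw UMI counts per gene and cell barcode, made with Cell Ranger 3.0.2 on GRCh38 from 10x 3′ v3 libraries (1 library labelled WT, 1 labelled GATA3 KO). No barcode had been removed for detected genes or mitochondrial share. Cells were filtered and chosen by the rule in the report. The members and gene lists (21) were chosen with earlier results of these data known. Counts were summed per class of cells in Python 3.11.15 (scipy 1.17.1), divided by the class total to give CPM, and compared as log2 ratios with a pseudocount of 1 CPM, at 20 CPM or more in the higher class. Exact binomial, Poisson and Clopper-Pearson 95% intervals cover counting error only, and UMIs of 1 library are not replicates. On simulated Poisson counts with 200 changed genes, intervals held the true ratio in 94.8% to 95.0% of genes. Such counts carry only the noise that the intervals assume. The simulation therefore checks the calculation and not the spread between cells or cultures. Depth ran from 10002 to 71392 UMIs per member. Scrublet (in scanpy 1.11.5) called 1 and 2 doublets and no member, too few for a caller that works, so doublets were not removed. Alternatives used edgeR 4.0.16 and DESeq2 1.42.0 scaling (R 4.3.3) only. Positions came from GENCODE 44 by gene identifier (33113 of 33538 matched).

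Besides the markers and the listed genes, the text names the 10 genes highest and lowest by the smaller ratio of both libraries (members against other cells), 5 each way against NANOG-low SOX2-high cells, the 10 highest and lowest in GATA3 KO over WT members, the 5 each way that differed most from other cells, and the 10 with the highest variance to mean ratio among members. Mitochondrial genes and those in the rule were left out of these ranks. The values of 1 listed gene are not reported here.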

Additional observations from a re-analysis of the deposited data

Results flagged for a closer look

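In 11 genes the ratio of members over all other cells of the library had an interval above 0 in one library and below 0 in the other, with a size of at least 0.2 in both. A further 12 named or listed genes did so at a smaller size. The difference between the libraries was not tested for any of them, and the other cells differed in makeup, with streak cells at 38% in the WT library and 2.48% in the GATA3 KO library. For each gene the WT ratio minus the GATA3 KO ratio is given. It was -2.08 for SERPINE2 (-1.82 in WT, 0.26 in GATA3 KO), -2.08 for LINC00458 (-0.89, 1.18), -1.97 for IER3 (-1.76, 0.21), -1.34 for GAL (-0.90, 0.44), -1.26 for NODAL (-0.55, 0.71), -1.07 for LINC01356 (-0.27, 0.80) and -0.63 for CDH2 (-0.35, 0.28), all lower in members of the WT library and higher in members of the GATA3 KO library. The GATA3 KO ratio of NODAL turned to -0.65 when the rule was read after thinning. The opposite held for IRX2 at 1.12 (0.54, -0.58), FGFR2 at 0.87 (0.67, -0.20), SFRP1 at 0.74 (0.25, -0.49) and PDPN at 0.46 (0.21, -0.25).

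Cells removed before the report's comparisons also met the gene thresholds, above the share that a count of 0 would allow. Among cells of over 7500 detected genes they were 139 of 1012 (13.7%) in the WT library and 155 of 1265 (12.3%) in the GATA3 KO library. Among cells under 10000 UMIs they were 24 of 530 (4.53%) and 38 of 697 (5.45%). Of the remaining cells over 25% mitochondrial counts, 5 of 221 GATA3 KO cells (2.26%) met them.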

How the results depend on the processing

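Each of 10 results was recomputed under up to 15 alternatives. No paired analysis was possible because each group had 1 library. No alternative turned the direction of the difference in the share of members. It was 2.81 points as reported, 1.38 with no limit on detected genes (interval -0.01 to 2.74), 4.78 at the looser and 0.89 at the stricter thresholds for SOX2 and NANOG, 11.51 with the rule read after thinning and 5.14 with the rule read on 50% of the UMIs. Genes at least 2-fold higher in WT members (10) were 6 with no limit on detected genes, 33 at stricter thresholds, 2 after thinning, 5 in the held-out UMIs, 3 with a pseudocount of 10 CPM, 5 under both edgeR TMM and DESeq2 scaling, 16 from 5 CPM and 24 with no filter. Genes lower in WT members (56) were 31, 119 and 195 with the pseudocount, from 5 CPM and with no filter. In GATA3 KO members the higher genes (3) were 0 after thinning, 1 in the held-out UMIs, 1 with the pseudocount and 6 both from 5 CPM and with no filter, and the lower genes (22) were 57 and 92 under the latter. GATA3 KO over WT members gave 154 higher and 132 lower genes at stricter thresholds in place of 93 and 57, 32 and 23 with the pseudocount, 176 and 136 from 5 CPM and 224 and 223 with no filter. The median of pluripotency-associated genes in WT members (0.46) was 0.37 at looser thresholds, 0.34 after thinning, 0.38 in the held-out UMIs and 0.36 under both scalings. In GATA3 KO members (0.13) it was 0.19, 0.23 and 0.19 in the first 3 of these and 0.17 with no filter. Fewer or more genes were tested where the filter was changed, and elsewhere the cause was not tested. Of 40 single-gene results 39 kept their direction. NODAL in GATA3 KO members over other cells (0.71) became -0.65 with the rule read after thinning. Depth limits NANOG, since 1 UMI in a thinned cell reaches the threshold.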
